A study of Mus musculus with 14 samples.

Results

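The mature miRNAs miR-125b, miR-99a, miR-100, miR-125a and miR-99b were followed across all arrays of a study of mouse peritoneal macrophages. They were picked by the miRNA name of the probe alone, with no measured value in the rule. The names themselves were chosen with earlier results of these data known, so shares among them are descriptions and not tests. These miRNAs make up 5 of the 343 probes named for mouse miRNAs. Each of the 5 has 1 probe, printed in 3 spots on every array, and 0 further probes carry one of these names with a suffix such as a star arm.

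The study hybridised 14 samples, 1 per array, in 4 groups of BALB/c mice. Nematode IL-4R KO (4 arrays) and nematode wild type (4 arrays) are macrophages taken on day 21 after Brugia malayi, a filarial worm, was implanted into the peritoneum of mice without or with the IL-4 receptor. Thioglycollate IL-4R KO (3 arrays) and thioglycollate wild type (3 arrays) are macrophages taken on day 3 after an injection of thioglycollate, a sterile irritant, in mice of the same genotypes. All cells were selected by adherence to plastic, and the labels give more than 80% purity by F4/80 and CD11b, so part of each sample may be other cells. Elicitation, day of harvest and slide cannot be told apart in this design, because no slide held arrays of both elicitations. Nor can genotype and slide in the nematode groups, because no slide held arrays of both nematode genotypes. Nothing in the labels says that replicates came from separate animals. A p-value therefore sets a difference only against the variation among these samples, and that variation may be technical. The array holds no mRNA probe, so loss of the receptor could not be checked.

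A miRNA guides the silencing complex to mRNAs that pair with its seed, the bases near its 5′ end, and lowers their stability or translation. The miR-125 family descends from the same ancestor as the worm miRNA lin-4, is abundant in blood stem cells, and miR-125b is known to repress Tnf and Irf4 in macrophages. The miR-99 and miR-100 family is known for repressing Mtor and other genes of growth signalling. In mammals both families lie beside let-7 genes in shared clusters, and IL-4 and IL-13 acting through the IL-4 receptor give the alternatively activated macrophage state that the worm implant evokes.

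The mature sequences show which of the 5 belong together and how little separates some of them. They are RefSeq entries placed on GRCm38.p6, written 5′ to 3′, and the capitals mark the seed, bases 2 to 8. The miR-125 seed is shared by miR-125b, miR-125a and miR-351, and the miR-99 seed by miR-99a, miR-100 and miR-99b.
miR-125b: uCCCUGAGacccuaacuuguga
miR-125a: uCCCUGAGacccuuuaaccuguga
miR-351: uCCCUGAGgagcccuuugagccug
miR-99a: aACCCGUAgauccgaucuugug
miR-100: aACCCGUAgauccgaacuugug
miR-99b: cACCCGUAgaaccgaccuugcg

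The first 13 bases of miR-125b and miR-125a are the same, and miR-125a is longer, with 24 bases against 22. Counting from 1 at the 5′ end of miR-99a, miR-100 differs from it by the single substitution U16A. The same count gives A1C, U11A, U16C and U21C for miR-99b. Whether the probes for miR-99a and miR-100 also bound each other's target was not tested.

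The genes form 3 clusters. Mir100 and Mir125b-1 lie at chr9:41531425-41582002, 50.6 kb in all, inside the long noncoding RNA gene Mir100hg and with Mirlet7a-2 between them. Mir99a and Mir125b-2 lie at chr16:77598936-77646343, 47.4 kb in all, with Mirlet7c-1 between them and no gene of the RefSeq table spanning them. Mir99b, Mirlet7e and Mir125a lie together at chr17:17830188-17830879, in 0.692 kb within the span of the protein-coding gene Spaca6. Both miR-125b genes give the same mature sequence (chr9:41581940-41581961 and chr16:77646279-77646300, + strand), so its probe cannot tell them apart. The chromosome 9 and 16 clusters are called the paired clusters here, and the chromosome 17 cluster the miR-99b and miR-125a cluster.

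Arrays differed in how far signal stood above blank spots. The 95th percentile of net intensity (foreground minus local background, in scanner units) of the blank and negative control spots ran from 12.6 to 111 over the 14 arrays, and between 41 and 279 mouse probes exceeded it. Nematode wild type replicate 4 stood apart, with 41 such probes and a correlation of 0.835 with the mean of its group over the 343 mouse probes, where the other 13 arrays lay between 0.936 and 0.977. Results that rest on this array are therefore given with and without it. miR-142-3p, a miRNA of blood cells, exceeded the blanks on all 14 arrays, while the epithelial miR-200c did so on 3 and the erythroid miR-451 on 2. Within the marker lists read below, the number ran from 1 (miR-429) to 5 (miR-141) for epithelial miRNAs. It ran from 1 (miR-181c) to 11 (miR-342) for lymphocyte miRNAs. For stromal miRNAs it ran from 1 (miR-199a) to 14 (miR-22, also on the macrophage list).

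Of the 5 members, miR-125b exceeded the blanks of its array on 14 arrays, miR-125a on 11, miR-99b on 7, and miR-99a and miR-100 on 3 each. Levels below are normalised log2 intensities, in which a difference of 1 is a doubling and dim probes are compressed. A probe's level depends on its own binding, so levels are compared between arrays and not between probes.

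**Figure D1:**
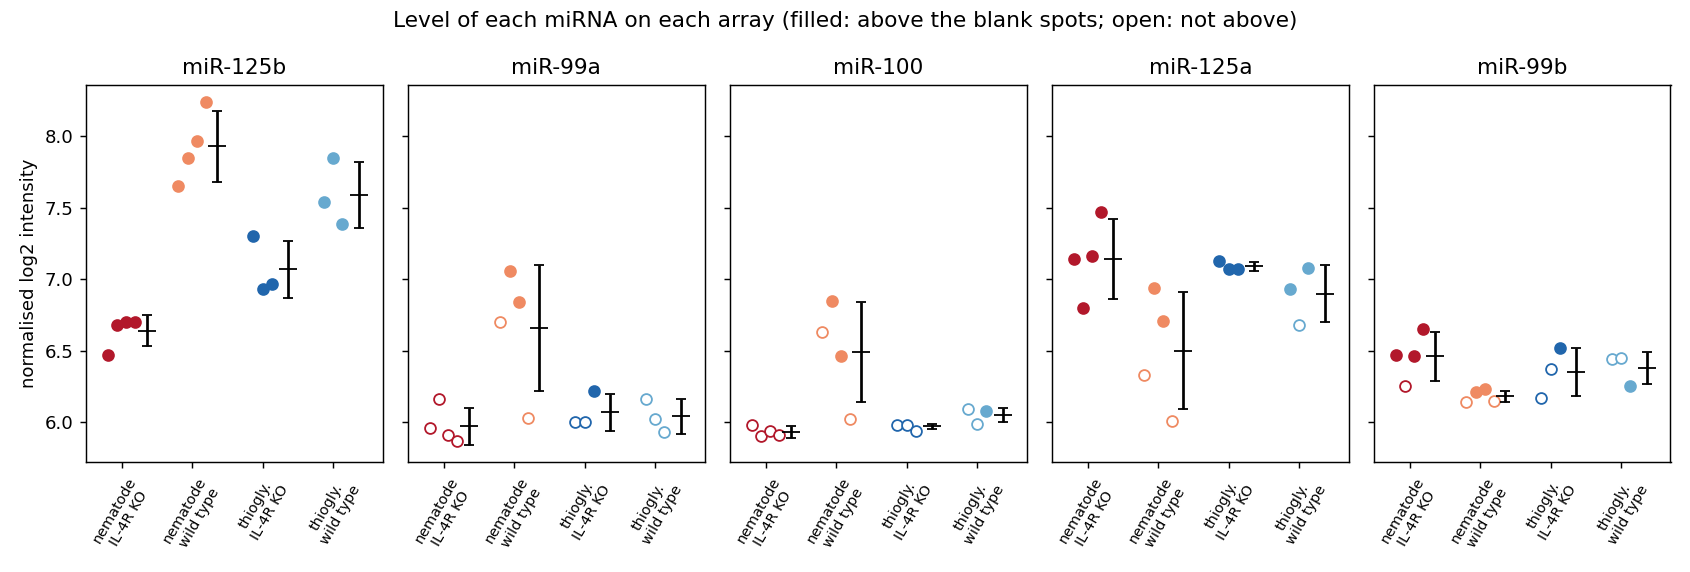
Normalised log2 intensity (vertical axis) of each of the 5 miRNAs on every array, by group along the horizontal axis, with the mean and SD beside the points. Filled points exceed the 95th percentile of the blank spots of their array and open points do not. miR-125b is filled on all 14 arrays and lowest in nematode IL-4R KO, while miR-99a and miR-100 leave the lower edge mainly in nematode wild type.

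The first comparison asks what the IL-4 receptor changes in the setting of the worm. miR-125b, the only member that passed the threshold, fell in nematode IL-4R KO macrophages relative to nematode wild type. The other 2 miRNAs of the paired clusters had lower means and both miRNAs of the miR-99b and miR-125a cluster had higher means, none of the 4 past an adjusted p of 0.05. In this bulk measurement fewer cells of a type and less of the miRNA per cell cannot be told apart. The nematode genotypes lay on separate slides, so a difference between slides cannot be told apart from a genotype difference here.

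miR-125b had levels of 6.47, 6.68, 6.70 and 6.70 in nematode IL-4R KO, against 7.65, 7.85, 7.97 and 8.24 in nematode wild type. Every IL-4R KO array lay below every wild type array. Before normalisation its net intensity was 39.9 to 68.4 with a median of 53.5 in nematode IL-4R KO, against 153 to 276 with a median of 213 in nematode wild type. The mean levels were 6.64 ± 0.11 and 7.93 ± 0.25 (SD, n = 4 each), a log2 difference of -1.29 (SE 0.14, 95% interval -1.59 to -0.99) or 2.45-fold lower, with a limma adjusted p of 0.000136 over 343 probes. It ranked 1 of 343 by p-value. With it, 1 of the 5 members passed the threshold, where 1.75% of all mouse probes did. The difference lay between -1.66 and -1.28 under 14 other ways of processing, and all of them kept it past the threshold.

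miR-125a carries the same seed but went the other way in its means. Its levels were 7.14, 6.80, 7.16 and 7.47 in nematode IL-4R KO, against 6.33, 6.94, 6.71 and 6.01 in nematode wild type. A single pair of arrays made the groups overlap, IL-4R KO replicate 2 lying below wild type replicate 2. The log2 difference was 0.64 (SE 0.19) with a limma adjusted p of 0.117. Without wild type replicate 2 it was 0.79 with an adjusted p of 0.0386, and without wild type replicate 4, the array that stood apart and the lowest here, 0.48 with an adjusted p of 0.227. The 4 nematode IL-4R KO arrays exceeded their blanks and 2 of the 4 nematode wild type arrays did.

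miR-351, the third carrier of the seed, lies on chromosome X outside these clusters. It averaged 7.42 ± 0.46 in nematode IL-4R KO and 6.87 ± 0.56 in nematode wild type (SD, n = 4 each), a log2 difference of 0.55 (SE 0.30) with a limma adjusted p of 0.476, and the groups overlapped. Nematode wild type replicate 4, the array that stood apart, was the lowest of its group for miR-351, at 6.03. The other arrays of that group lay between 7.08 and 7.20. So among the carriers of the miR-125 seed miR-125b alone passed the threshold. Whether the 3 differ from one another in their response was not tested.

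In the miR-99 family, miR-99a had levels of 5.96, 6.16, 5.91 and 5.87 in nematode IL-4R KO, against 6.70, 7.06, 6.84 and 6.03 in nematode wild type. Wild type replicates 1, 2 and 3 were above all IL-4R KO arrays, and replicate 4 lay among them. No IL-4R KO array exceeded its blanks (0 of 4), while 2 wild type arrays did, and wild type replicate 1 fell just short with a net intensity of 92.9 against a blank percentile of 96.2. The means were 5.97 ± 0.13 and 6.66 ± 0.44 (SD, n = 4 each). The fitted log2 difference was -0.68 (SE 0.17) with a limma adjusted p of 0.0588. Because the IL-4R KO signal is only a bound, the wild type mean was set against the lowest signal that exceeded the blanks. This gave at least 1.21-fold lower. That mean includes the wild type arrays that did not exceed their blanks, so the bound is approximate.

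miR-100 gave much the same picture. Its levels were 5.98, 5.90, 5.94 and 5.91 in nematode IL-4R KO, against 6.63, 6.85, 6.46 and 6.02 in nematode wild type. All IL-4R KO arrays were lower than all wild type arrays, by 0.04 at the closest, and again 0 of 4 and 2 of 4 exceeded their blanks. The means were 5.93 ± 0.04 and 6.49 ± 0.35 (SD, n = 4 each). The fitted log2 difference was -0.56 (SE 0.13) with a limma adjusted p of 0.0566. The bound, approximate for the same reason, was at least 1.07-fold lower.

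Both miRNAs depended on nematode wild type replicate 4, the array that stood apart. Without it miR-99a gave a log2 difference of -0.89 and miR-100 one of -0.71, each with a limma adjusted p of 0.00025. The approximate bounds were then at least 1.39-fold and at least 1.20-fold lower. The 3 remaining wild type arrays then averaged 6.86 ± 0.18 for miR-99a and 6.64 ± 0.20 for miR-100 (SD, n = 3). On replicate 4 itself miR-125b was the highest of its group at 8.24, while miR-99a, miR-100 and miR-125a were the lowest of theirs. The blank percentile of that array was 111, the highest of all 14.

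miR-99b had levels of 6.47, 6.25, 6.46 and 6.65 in nematode IL-4R KO, against 6.14, 6.21, 6.23 and 6.15 in nematode wild type. The groups did not overlap, with 0.02 between the nearest arrays. The log2 difference was 0.27 (SE 0.10) with a limma adjusted p of 0.202, and 3 of 4 IL-4R KO and 2 of 4 wild type arrays exceeded their blanks. Non-overlapping groups were thus found for 3 of the 5 members (miR-125b and miR-100 lower, miR-99b higher), where 9.04% of all mouse probes had them.

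All 5 members had an unadjusted p under 0.05, where 12.5% of all mouse probes did. Their median log2 difference was -0.56, beside 0.00 over all 343 probes. None of the 14 other settings and none of the 14 fits that left out 1 array turned the direction of any member in this comparison. Not all of them could. Changing only the probe filter, the prior, the groups fitted or a block left the fitted difference as it was. So did leaving out a thioglycollate array.

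**Figure D2:**
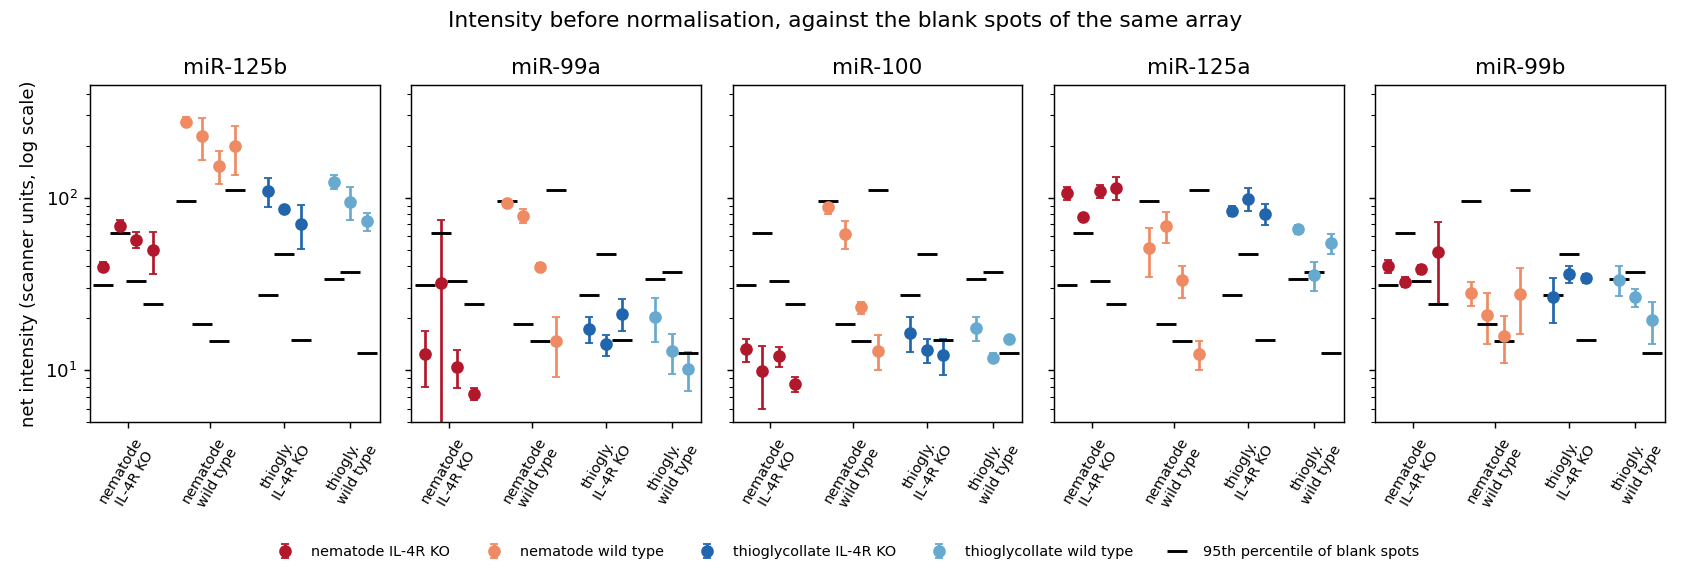
Net intensity (foreground minus local background, scanner units, log axis) of each miRNA on every array before normalisation, by group, with the SD of its 3 spots as bars and the 95th percentile of the blank spots of that array as a black dash. miR-125b lies above the dash on every array. The lower bar of miR-99a on nematode IL-4R KO replicate 2 runs off the axis because its 3 spots had an SD of 41.8 around a mean of 32.0.

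The let-7 neighbours did not pass the threshold. let-7c, which lies between Mir99a and Mir125b-2 but is also made from a second gene on another chromosome, averaged 8.67 ± 0.17 in nematode IL-4R KO and 8.96 ± 0.63 in nematode wild type (SD, n = 4 each), a log2 difference of -0.30 (SE 0.26) with a limma adjusted p of 0.627. For let-7c nematode wild type replicate 4, the array that stood apart, was the highest of its group, at 9.68. let-7e, the neighbour of miR-99b and miR-125a, exceeded the blanks on 4 of 14 arrays. It gave a log2 difference of 0.07 (SE 0.10) with a limma adjusted p of 0.761. let-7a, the neighbour of miR-100, has a probe named for other species, at 9.64 ± 0.37 in nematode IL-4R KO and 9.88 ± 0.39 in nematode wild type (SD, n = 4 each).

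Of the probes for the same families in other species, those for lin-4 and for miR-100 of 2 flies averaged between 5.95 and 6.20 in every group and never exceeded the blanks on more than 1 array of a group. A probe for fish and frog miR-125a exceeded the blanks on 3 of 4 arrays in each nematode group, 3 of 3 in thioglycollate IL-4R KO and 2 of 3 in thioglycollate wild type. It averaged 6.78 ± 0.31 in nematode IL-4R KO and 6.58 ± 0.38 in nematode wild type (SD, n = 4 each). The thioglycollate means were 6.97 ± 0.13 in IL-4R KO and 6.83 ± 0.12 in wild type (SD, n = 3 each). These means have the same order within each elicitation as the mouse probe. In the nematode groups the order leans on wild type replicate 4, at 6.01. The other nematode wild type arrays lay between 6.71 and 6.84, within the IL-4R KO range of 6.48 to 7.07.

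The contrast between the clusters was also read within each array, from the normalised levels of miR-125b and miR-125a. miR-125b minus miR-125a was -0.67, -0.12, -0.46 and -0.78 in nematode IL-4R KO, against 1.32, 0.91, 1.25 and 2.23 in nematode wild type. It was 0.17, -0.14 and -0.10 in thioglycollate IL-4R KO, against 0.60, 1.17 and 0.31 in thioglycollate wild type. The difference was lower on every IL-4R KO array than on any wild type array of the same elicitation. It recombines the levels of the 2 members and is no further evidence. How often other pairs of probes separate the groups was not counted. No test was made of the difference, and its sign on an array has no meaning because it depends on how brightly each probe binds.

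The size of this gap depended on the normalisation. The fitted genotype difference of miR-125b minus that of miR-125a was -1.94 in the nematode setting, and between -2.14 and -2.05 with cyclic loess, median scaling or no normalisation. In the thioglycollate setting it was -0.72, and between -0.61 and -0.53 with those. Median scaling and no normalisation must give the same value here, because a shift of a whole array cancels between 2 probes. For miR-99a and miR-100 against miR-99b no such difference is given, since miR-99a and miR-100 exceeded the blanks on no array of nematode IL-4R KO, miR-99a on none of thioglycollate wild type and miR-100 on none of thioglycollate IL-4R KO.

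**Figure D3:**
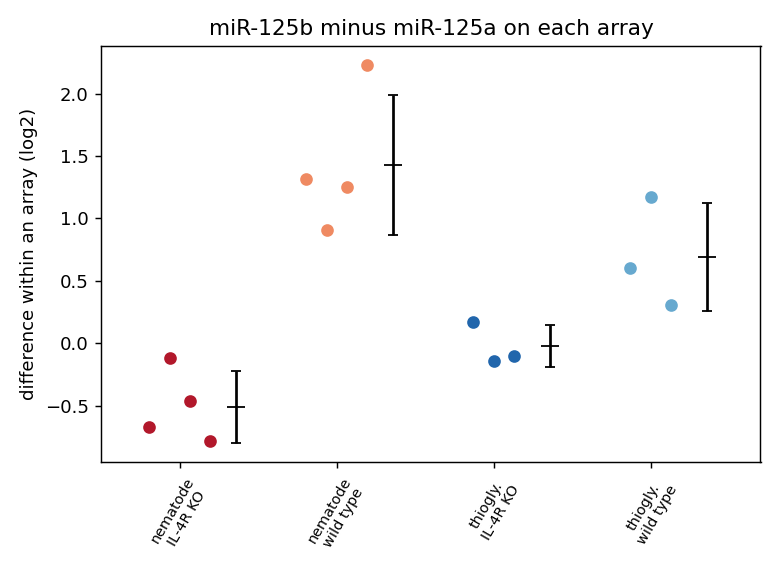
Normalised log2 level of miR-125b minus that of miR-125a on the same array (vertical axis), by group along the horizontal axis, with the mean and SD beside the points. The IL-4R KO arrays lie below the wild type arrays in both elicitations, at -0.78 to -0.12 against 0.91 to 2.23 in the nematode groups and at -0.14 to 0.17 against 0.31 to 1.17 in the thioglycollate groups.

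Over the 14 arrays, which share the normalisation and the group structure, levels of miR-99a and miR-100 had a Pearson r of 0.93, and of 0.83 over deviations from group means. Without nematode wild type replicate 4, over 13 arrays, these were 0.93 and 0.32. miR-125b correlated with miR-99a at 0.52 and with miR-100 at 0.56 over the arrays, but at -0.45 and -0.61 over the deviations. Without that array the values were 0.67 and 0.70 over the arrays, and 0.09 and -0.29 over the deviations. Most of the miR-99a and miR-100 values behind them did not exceed the blanks. miR-125b and miR-125a had an r of -0.72 over the 14 arrays and -0.62 without that array, and miR-125a and miR-99b had 0.65 and 0.61.

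The same genotype comparison in thioglycollate-elicited cells asks whether the receptor matters without the worm. No member passed the threshold of the limma fit there, where 0.292% of all mouse probes did. At an unadjusted p under 0.05, 1 of the 5 did, beside 4.08% of all mouse probes. miR-125b again had the lower levels in the IL-4R KO, and the fitted differences of the other 4 members were 0.19 or less in size.

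miR-125b had levels of 7.30, 6.93 and 6.97 in thioglycollate IL-4R KO, against 7.54, 7.85 and 7.39 in thioglycollate wild type. The groups did not overlap, with 0.09 between the nearest arrays. The log2 difference was -0.53 (SE 0.16, 95% interval -0.87 to -0.18) with a limma adjusted p of 0.287 and an unadjusted p of 0.00587. IL-4R KO replicate 1 and wild type replicate 3 shared a slide, the only slide with both genotypes, and within it the difference was -0.09. With median scaling the difference was -0.15 and with no normalisation -0.10, so its size depended on the scaling.

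miR-100 was the second member whose groups did not overlap, at 5.94 to 5.98 in thioglycollate IL-4R KO and 5.99 to 6.09 in thioglycollate wild type. That makes 2 of 5 members, where 11.1% of all mouse probes had non-overlapping groups. Its log2 difference was -0.09 (SE 0.16, 95% interval -0.42 to 0.25) with a limma adjusted p of 1, and only 1 of these 6 arrays exceeded its blanks. miR-99a gave 0.03 (95% interval -0.40 to 0.47), miR-125a 0.19 (-0.28 to 0.66) and miR-99b -0.03 (-0.27 to 0.22). With median scaling miR-125a gave 0.38 and with no normalisation 0.43, neither past the threshold. The values of miR-99a and miR-100 have no fold, because 1 of their groups never exceeded its blanks and the other averaged below the lowest signal that did. The interval of miR-125a holds the difference of 0.64 fitted in the nematode setting. miR-351 averaged 7.58 ± 0.14 in thioglycollate IL-4R KO and 6.74 ± 0.55 in thioglycollate wild type (SD, n = 3 each), a log2 difference of 0.84 (SE 0.35) with an adjusted p of 0.970.

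Whether the genotype difference itself differed between the elicitations was tested by the interaction, the difference in nematode-elicited cells minus that in thioglycollate-elicited cells. No member passed the threshold, where 0.583% of all mouse probes did, and 3 of 5 had an unadjusted p under 0.05, beside 6.71%. miR-125b gave -0.77 (SE 0.21, 95% interval -1.22 to -0.31) with a limma adjusted p of 0.211, miR-99a -0.71 (SE 0.27) with 0.541 and miR-100 -0.47 (SE 0.21) with 0.693. In the other cluster miR-125a gave 0.45 (SE 0.29) with an adjusted p of 0.904 and miR-99b 0.30 (SE 0.15) with 0.833. A larger genotype difference in the nematode setting was therefore not established for any of the 5 in the full set. Without nematode wild type replicate 4, miR-99a gave -0.92 with an adjusted p of 0.0106 and miR-100 -0.62 with 0.0246. With median scaling the interaction of miR-125b was -1.15 with an adjusted p of 0.019.

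**Figure D4:**
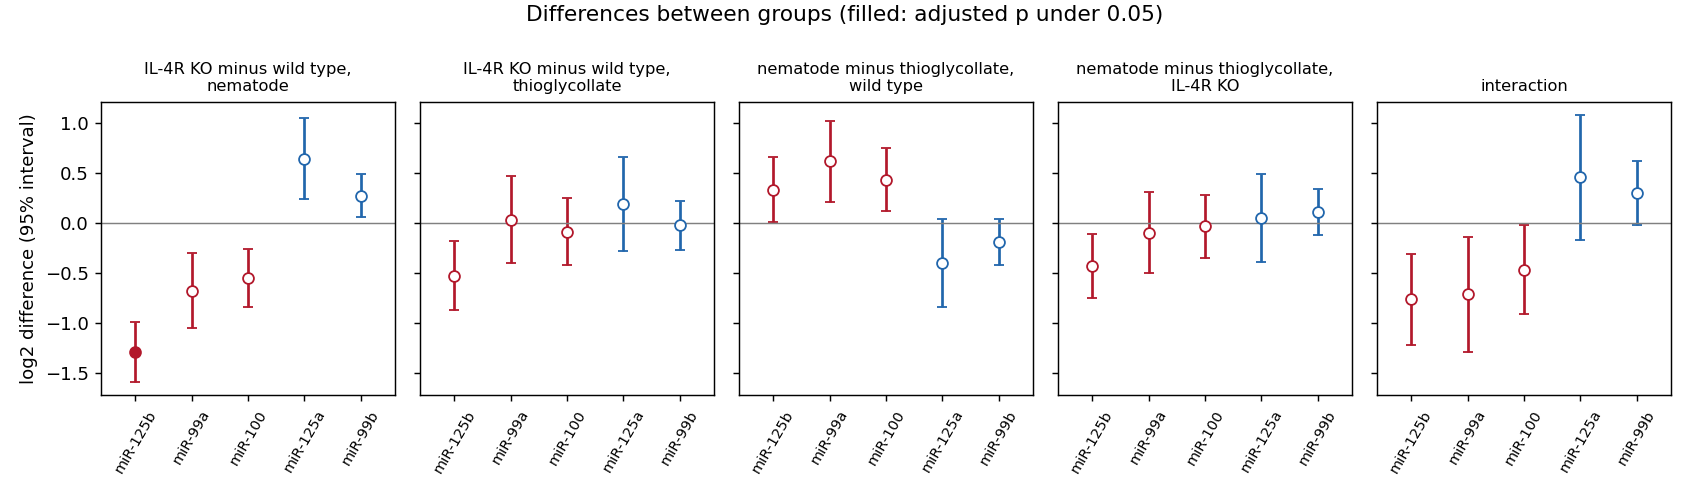
Log2 difference between groups with its 95% interval (vertical axis) for each of the 5 miRNAs in the 4 comparisons and the interaction; red marks the paired clusters, blue the miR-99b and miR-125a cluster, and filled points have an adjusted p under 0.05. Only miR-125b in the nematode genotype comparison is filled, at -1.29.

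The remaining comparisons ask how the elicitations differ within a genotype, where day of harvest and slide differ as well. They reuse the arrays of the genotype comparisons, so the values are set side by side and not counted as further evidence. No member passed the threshold of the limma fit in either genotype. At an unadjusted p under 0.05, 3 of 5 did in wild type, beside 10.8% of all mouse probes, and 1 of 5 in IL-4R KO, beside 9.62%.

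In wild type, where 0.875% of all mouse probes passed, the 3 miRNAs of the paired clusters had higher means in nematode-elicited cells and the other cluster lower ones. miR-99a averaged 6.66 ± 0.44 in nematode wild type (n = 4) and 6.04 ± 0.12 in thioglycollate wild type (n = 3), and 0 of the 3 thioglycollate arrays exceeded their blanks. The log2 difference was 0.62 (SE 0.19) with a limma adjusted p of 0.209, at least 1.24-fold higher as an approximate bound. miR-100 gave 0.43 (SE 0.15) with an adjusted p of 0.267, and miR-125b 0.33 (SE 0.15) with 0.432. Without nematode wild type replicate 4, miR-99a gave 0.82 with an adjusted p of 0.00205 and miR-100 0.59 with 0.0025. With median scaling miR-125b gave 0.77 with 0.0449.

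miR-125a averaged 6.50 ± 0.41 in nematode wild type (n = 4) and 6.90 ± 0.20 in thioglycollate wild type (n = 3), a log2 difference of -0.40 (SE 0.20) with a limma adjusted p of 0.508. miR-99b had levels of 6.14, 6.21, 6.23 and 6.15 in nematode wild type, against 6.44, 6.45 and 6.25 in thioglycollate wild type. These groups did not overlap, which held for 1 of the 5 members and 7.87% of all mouse probes. Its log2 difference was -0.19 (SE 0.11) with an adjusted p of 0.558. let-7c gave 0.69 (SE 0.28) with an adjusted p of 0.421.

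In IL-4R KO cells, where 1.46% of all mouse probes passed, miR-125b was the lower in the nematode setting. Its levels of 6.47 to 6.70 in nematode IL-4R KO lay below those of 6.93 to 7.30 in thioglycollate IL-4R KO. Such a gap between the groups held for 1 of the 5 members and 15.7% of all mouse probes. The log2 difference was -0.43 (SE 0.15) with a limma adjusted p of 0.231. miR-125a gave 0.05 and miR-99b 0.11, neither past the threshold. miR-100 exceeded the blanks on none of these 7 arrays and miR-99a on 1, in the thioglycollate group, so neither has a fold here, and their fitted differences of -0.03 and -0.10 compare signals near the blanks.

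Across the 4 groups, from low to high, miR-125b averaged 6.64 ± 0.11 in nematode IL-4R KO (SD, n = 4), 7.07 ± 0.20 in thioglycollate IL-4R KO (SD, n = 3), 7.59 ± 0.23 in thioglycollate wild type (SD, n = 3) and 7.93 ± 0.25 in nematode wild type (SD, n = 4). The arrays of the wild type groups overlapped and those of the other neighbours in this order did not. miR-125a had the reverse extremes, nematode IL-4R KO at 7.14 ± 0.28 and nematode wild type at 6.50 ± 0.41 (SD, n = 4 each), with overlap between all neighbours in its order. For miR-99b nematode IL-4R KO was also the highest and nematode wild type the lowest, and for miR-99a and miR-100 these ends were reversed. Neighbours overlapped in each of these orders except the thioglycollate groups of miR-100.

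Other miRNAs of macrophage activation were read from a list of 17, of which 14 had a mouse probe. In the nematode genotype comparison 0 rose and 2 fell, with a list median of -0.06 beside 0.00 over all probes. miR-422b gave a log2 difference of -1.97 (SE 0.22) with a limma adjusted p of 0.000136. miR-223, abundant in granulocytes and monocytes, gave -1.34 (SE 0.19) with 0.000697. miR-155 and miR-21, which rise on inflammatory activation, gave 0.12 and 0.06 and did not pass. miR-146, also on the list, gave 0.34 (SE 0.11) with a limma adjusted p of 0.172. It did not pass either, but all its IL-4R KO arrays lay above all its wild type arrays. Of 6 other let-7 family members none passed and 1 had an unadjusted p under 0.05, all 6 differences were positive with a median of 0.30, and let-7i had the largest, 1.00 (SE 0.40) with an adjusted p of 0.291.

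Markers of other cell types were summed for each array. For 11 stromal, fibroblast and mesothelial miRNAs the summed net intensity was 886 to 1132 in nematode IL-4R KO and 1204 to 2566 in nematode wild type, 1686 to 1844 in thioglycollate IL-4R KO and 1589 to 1862 in thioglycollate wild type. Most of that sum is miR-22, also on the macrophage list. Without it the other 10 summed to 231 to 281 in nematode IL-4R KO and 200 to 557 in nematode wild type. These last ranges overlapped. None of the 11 passed the threshold of the limma fit between the nematode genotypes, 3 had an unadjusted p under 0.05, and the list median was -0.06. The nearest were miR-22, with a log2 difference of -0.92 (SE 0.22) and a limma adjusted p of 0.0566, and miR-199b, with -0.80 (SE 0.20) and 0.0569. The defining miR-199a* exceeded the blanks on 0 of 4 nematode IL-4R KO and 2 of 4 nematode wild type arrays, and miR-214 on 0 and 1.

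Among lymphocyte miRNAs 1 of 5 rose, with a list median of 0.10 beside 0.00 over all probes. The 5 on the list summed to 187 to 269 in nematode IL-4R KO and 86.6 to 189 in nematode wild type. It was miR-150, the marker of mature lymphocytes, which rose by 0.96 (SE 0.13) with a limma adjusted p of 0.000573 and exceeded the blanks on 4 of 4 nematode IL-4R KO and 2 of 4 nematode wild type arrays. The other 4 lay between -0.16 and 0.15 and did not pass. None of 2 haematopoietic, 2 endothelial, 2 erythroid and 6 epithelial miRNAs passed, and 1 of them had an unadjusted p under 0.05. This was the defining epithelial miR-200c, at 0.29 (SE 0.10) with a limma adjusted p of 0.202. All its IL-4R KO arrays lay above all its wild type arrays, but it exceeded the blanks on 1 of 4 and 0 of 4. Among the 6 epithelial miRNAs 2 differences were positive and 4 negative. The part of stromal, granulocyte and lymphocyte cells in the values of the 5 members was not tested.

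Among the 225 other mouse probes that exceeded the blanks on at least 3 arrays, the levels most like those of miR-125b over the 14 arrays were those of miR-223 (Pearson r 0.94), miR-720 (0.88), miR-22 (0.78), miR-422b (0.77) and miR-135a (0.70). For miR-125a they were let-7g (0.88), let-7i (0.86), miR-301 (0.85), miR-17-5p (0.84) and miR-20a (0.79). Without nematode wild type replicate 4 these r lay between 0.59 and 0.93 for miR-125b and between 0.59 and 0.79 for miR-125a. No miRNA stood on both lists. These values describe arrays that share a normalisation and 4 group means.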

How the data were processed

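Total RNA labelled with Hy3 was hybridised to 1-colour miRCURY LNA arrays, 2 per slide on 7 slides. Per the file headers, the deposited files give each spot's foreground intensity and local background on a linear scale, not normalised, and the authors' deposited value table equals foreground minus background within 0.001 at all 5184 spots of every array, uncentred, with column medians from 10.5 to 19.1. Each slide holds 1 group except slide 12, and slides were scanned group after group.

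Background was corrected by normexp (offset 50). The log2 values of a probe's spots were averaged and quantile normalised over 1309 named miRNA probes. limma 3.58.1 in R 4.3.3 fitted 1 mean per group over all 14 arrays (lmFit, eBayes, two-sided moderated test), with Benjamini-Hochberg adjustment over 343 mouse probes and a threshold of 0.05. The fit was tested on simulated data. A probe exceeded the blanks where its net intensity was above the 95th percentile of 726 blank and negative control spots, as 230 mouse probes did on at least 3 arrays. Where no array of a group did, the fold is a bound: the other group's mean against the mean, per array, of the higher of the lowest level above blanks and the probe's own. Such a bound carries no sampling error. It is approximate, because the other group's mean also includes arrays of that group that did not exceed their blanks. The number of arrays limits the precision.

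The members and lists were chosen with earlier results of these data known. Named miRNAs are all members, their let-7 neighbours, miR-351, family probes of other species, the 5 most alike to miR-125b and to miR-125a, and the largest and the passing members of each list. Some further list members are also named, among them defining markers, markers at the ends of a range, miR-155, miR-21 and miR-146. miR-146 and the ends of the ranges were added after their values were seen. The stromal sum without miR-22 was added after its values were seen. Alternatives changed the background, normalisation, spot summary, probe filter, prior, groups fitted, replicate number, slide and slide position, and left out each array.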

Additional observations from a re-analysis of the deposited data

Results flagged for a closer look

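The lowest nematode IL-4R KO array for miR-125b, at a level of 6.47, stood apart from the other 3, which lay between 6.68 and 6.70. The gap made up 0.897 of the range of the group. Chance sets apart about 1 in 20 groups this way. Each of the 5 members was screened in both nematode groups, and only this case was flagged. All 4 arrays remained below every nematode wild type array, the lowest of which was at 7.65.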

How the results depend on the processing

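The fall of miR-125b in nematode IL-4R KO against nematode wild type passed under all 14 other settings (adjusted p at most 0.0212) and all 14 fits leaving out 1 array (-1.38 to -1.19). In that comparison miR-99a passed with probes above blanks only (-0.68), offset 20 (-1.08), the median of spots (-0.71), a trend and robust prior (-0.68) and the replicate block (-0.68). miR-100 passed under these (-0.56, -0.91, -0.57, -0.56 and -0.56) and with no background correction (-0.70) and quantiles over mouse probes alone (-0.53). miR-125a passed with cyclic loess (0.59), median scaling (0.76) and no normalisation (0.73). Leaving out 1 array gave -0.89 to -0.55 for miR-99a, -0.71 to -0.43 for miR-100, 0.48 to 0.79 for miR-125a and 0.21 to 0.34 for miR-99b.

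In the thioglycollate genotype comparison leaving out 1 array gave -0.64 to -0.40 for miR-125b, -0.040 to 0.094 for miR-99a, -0.12 to -0.07 for miR-100, 0.08 to 0.28 for miR-125a and -0.11 to 0.065 for miR-99b. miR-99a turned sign with cyclic loess (-0.019) and median scaling (-2e-04), and miR-99b with median scaling (0.039) and no normalisation (0.095). In wild type, nematode against thioglycollate, leaving out 1 array gave 0.23 to 0.46 for miR-125b, 0.48 to 0.82 for miR-99a, 0.31 to 0.59 for miR-100, -0.55 to -0.24 for miR-125a and -0.26 to -0.16 for miR-99b, and miR-125b passed with median scaling (0.77). In IL-4R KO the ranges were -0.50 to -0.32, -0.16 to -0.02, -0.05 to -0.02, -0.058 to 0.17 and 0.01 to 0.19 in the same order. There the fitted values of miR-99a (0.024) and miR-100 (0.048) turned sign with the replicate block, both from signals near the blanks, and miR-125a (-0.028) with no background correction. For the interaction they were -0.89 to -0.65, -0.92 to -0.58, -0.62 to -0.35, 0.29 to 0.60 and 0.21 to 0.38, and miR-125b passed with median scaling (-1.15) and no normalisation (-1.23). The causes were not tested.

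The number of all mouse probes passing in the nematode genotype comparison was 6 (2 higher, 4 lower), and 10 with probes above blanks, 10 with offset 20, 14 with cyclic loess (7 and 7), 8 with median scaling (5 and 3), 7 with no normalisation (3 and 4), 10 with the trend and robust prior, and 6 to 12 leaving out 1 array. The thioglycollate count was 1, and 2 with the replicate block or slide position, and 1 to 5 leaving out 1 array. The wild type elicitation count was 3 (1 higher, 2 lower), and 8 with probes above blanks, 5 with no background correction, 1 with cyclic loess (1 higher), 5 with mouse-only quantiles (1 and 4), 1 with no normalisation (1 higher), 3 with median scaling (2 and 1), 9 with the median of spots, 0 over these groups alone, and 2 to 9 leaving out 1 array. The IL-4R KO count was 5 (3 higher, 2 lower), and 3 with no background correction, 10 with cyclic loess, 8 with no normalisation (4 and 4), 6 with median scaling (3 and 3), 11 over these groups alone, and 3 to 8 leaving out 1 array. The interaction count was 2 (both lower), and 0 with no background correction, 3 with cyclic loess or mouse-only quantiles (1 higher and 2 lower in each), 4 with median scaling or no normalisation (1 higher and 3 lower in each), 1 with the trend and robust prior, and 0 to 7 leaving out 1 array. The highest counts came without nematode wild type replicate 4, except 5 in the thioglycollate comparison, which came without nematode IL-4R KO replicate 2. Without normalisation the median of all probes was 0.10 in the wild type elicitation comparison, where it was -0.02 with it, and -0.14 in the interaction, where it was 0.00 with it.

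Same-numbered arrays correlated between -0.133 and 0.287 in their deviations from group means, and unlike-numbered arrays between -0.336 and 0.336. Whether same-numbered samples were paired cannot be told from these values. The replicate block changed no member's call beyond miR-99a and miR-100 in the nematode genotype comparison. The slide as a random block (consensus correlation -0.019) changed no member's call. It cannot separate slide from nematode genotype or from elicitation, because no slide held both nematode genotypes or both elicitations. Signal near the blanks limits miR-99a, miR-100 and miR-99b most.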
